A study of Sus scrofa with 5 samples.

Results

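OLFM4-high epithelial cells of the pig cecum made up 1198 of the 72701 barcodes with at least 200 detected genes in 5 single-cell RNA libraries. The cells were chosen by their counts of OLFM4, EPCAM, KRT8 and 3 goblet genes and by depth: a barcode was taken as OLFM4-high when it held at least 1000 UMIs (unique molecular identifiers, each standing for 1 counted transcript), at least 1 UMI of the epithelial genes EPCAM or KRT8, at least 20 OLFM4 UMIs per 10000, and fewer than 20 per 10000 of the goblet cell genes MUC2, CLCA1 and SPINK4 together. Each library held cells from scraped cecal mucosa of 5 male Large White piglets of 1 age, namely newborn (d0), 1 day (d1), 7 days (d7), 14 days (d14) or 21 days (d21). The piglets received only their mothers' milk, and the cells of the 5 animals were mixed before loading, so that each age had 1 library. A difference between ages is therefore also one between libraries, and the 2 cannot be told apart. The genes SPINK1, BPI, FCN2 and C3 had been named with OLFM4 as marks of these cells from earlier results of the same data, and their values are given as a description without a test.

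The epithelium of the large intestine renews from crypts. Stem cells near the crypt base, kept by Wnt signals and marked in many species by the receptor LGR5 and the transcription factor ASCL2, give rise to dividing progenitors that move up the crypt and mature into absorptive and secretory cells. OLFM4 encodes olfactomedin 4, a secreted glycoprotein whose transcript is abundant near the base of human intestinal crypts. In the assembly Sscrofa11.1 the gene lies on chromosome 11 from 26252948 to 26375531.

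Other groups of epithelial barcodes served for comparison. OLFM4-low cells met the same limits on genes, UMIs and EPCAM or KRT8 but held under 20 per 10000 of both OLFM4 and the goblet genes (25109 barcodes), and goblet-gene-high cells held at least 20 per 10000 of the 3 goblet genes (1170 barcodes). The OLFM4-low barcodes of the later libraries carried much RNA of other cells. CD74, a chaperone of class II antigen presentation, stood at 0.988 UMIs per 10000 in them at d0 and at 51.2 at d14, against 55.7 at d14 in the barcodes without a UMI of EPCAM or KRT8, while EPCAM stood at 15.8 in them at d0 and at 2.01 at d14. Every test between groups was therefore run on the barcodes of both sides that held at least 3 of 15 general epithelial genes and no UMI of PTPRC, COL1A1, COL3A1 or PECAM1, the genes of leukocytes, fibroblasts and endothelium. These limits left 20, 145, 98, 93 and 355 OLFM4-high cells, in order of age, and 9944, 2722, 360, 33 and 302 OLFM4-low cells, and 412, 349 and 23 goblet-gene-high cells at d0, d1 and d7. They are called the stricter barcodes below.

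The d0 library was thin in these cells and high in mitochondrial counts. It gave 21 OLFM4-high cells, against 227 at d1, 145 at d7, 191 at d14 and 614 at d21, and 7 of the 21 had at least 20% of their counts from mitochondrial genes. The median mitochondrial share of the OLFM4-high cells was 9.52% at d0, 6.52% at d1, 5.90% at d7, 2.26% at d14 and 2.25% at d21, and that of the OLFM4-low cells was 28.8% at d0. Depth was uneven as well, with medians of 5186, 9546, 24556, 8667 and 6075.5 UMIs per OLFM4-high cell in order of age and 3485 to 5274 in the OLFM4-low cells. The summed OLFM4-high counts came to 210845 at d0, 2566141 at d1, 4586813 at d7, 5534738 at d14 and 7464687 at d21. Of the 1198 barcode sequences, 19 also occurred in another library.

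RNA of other cells was present in the OLFM4-high cells at a level that changed with the library. In total 485 of the 1198 held at least 1 UMI of PTPRC, COL1A1, COL3A1 or PECAM1. The 11 measured genes of T and NK cells summed to 0.0949, 0.627, 2.44, 3.98 and 13.7 UMIs per 10000 in order of age, against 36.9, 13.4, 86.0, 77.1 and 170.9 in the barcodes without EPCAM or KRT8. At least 2 UMIs of these genes were held by 1, 8, 91, 108 and 575 of the OLFM4-high cells in order of age. The most abundant of them was CCL5, with 10.9 at d21 in the OLFM4-high cells, above EPCAM at 7.50, and with 5.14 in the stricter ones, and the pan-leukocyte gene PTPRC stood at 0, 0.0585, 0.320, 0.399 and 0.560. The 11 stromal genes, led by COL3A1, summed to 0.0474, 1.24, 0.0654, 2.64 and 0.994, the 11 myeloid genes, led by FCER1G, to 0, 0.581, 0.456, 1.24 and 0.860, and the 9 genes of B and plasma cells, led by JCHAIN and with CD79A at 0, to 0.0949, 0.113, 0.438, 1.51 and 0.750. The 8 endothelial genes, led by PLVAP, summed to at most 0.655 at d1, and the 6 erythroid genes, led by HBB and with SLC4A1 at 0, to 0.658 at d7 and 0.764 at d21. How far free RNA or doublets account for these values was not tested.

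OLFM4 itself, which chose the cells, had a median of 26.3 UMIs per 10000 per cell at d0, 33.6 at d1, 46.3 at d7, 80.9 at d14 and 44.2 at d21, and highest values of 95.9, 131, 149, 215 and 214. At d1 the nearest cells on the 2 sides of the limit stood at 20.05 and 19.98, and at d14 at 21.8 and 19.7, so no gap set the cells apart. At least 50 per 10000 was reached by 2, 53, 66, 148 and 249 cells, 518 in all.

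FCN2 (ficolin 2, a secreted lectin that starts the complement cascade) was the most abundant of the 5 marker genes at d0, d7 and d21, and at d1 and d14 stood just under OLFM4, whose summed level there was 35.9 and 78.0 UMIs per 10000. Its summed level in the OLFM4-high cells was 69.7 UMIs per 10000 at d0, 33.8 at d1, 68.1 at d7, 77.4 at d14 and 98.5 at d21, against 0.926, 1.68, 2.36, 2.36 and 6.33 in the OLFM4-low cells. After each barcode was thinned to 1000 UMIs, FCN2 was seen in 100%, 63.4%, 96.6%, 97.4% and 85.0% of the OLFM4-high cells. In the barcodes without EPCAM or KRT8 it was seen in 1.91%, 3.70%, 3.50%, 2.55% and 8.01%. The median depths of these barcodes before thinning were 1709, 2711, 3070.5, 4607.5 and 3187 UMIs. They were not free of epithelial RNA, with sums of 14.1, 8.43, 1.64, 0.438 and 1.10 UMIs per 10000 of the 15 general epithelial genes. Their median mitochondrial share at d0 was 62.4%. In the stricter OLFM4-low barcodes FCN2 stood higher, at 0.979, 2.31, 5.52, 15.8 and 19.3, against 68.8, 33.5, 71.1, 92.6 and 103.2 in the stricter OLFM4-high ones, still without overlap. Goblet-gene-high cells also carried it.

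BPI (bactericidal permeability-increasing protein, which binds endotoxin) depended on age far more. The OLFM4-high cells held 2.37 UMIs per 10000 at d0, 0.779 at d1, 22.8 at d7, 39.6 at d14 and 19.3 at d21, and the OLFM4-low cells at most 0.828. In the stricter OLFM4-low barcodes BPI reached 5.94 at d14 and 2.12 at d21, above the 0.531 of the stricter OLFM4-high cells of d1. SPINK1, a secreted trypsin inhibitor, stood at 3.42, 5.19, 16.7, 8.71 and 12.7. C3, the central complement component, stood at 2.13, 12.2, 10.7, 15.3 and 8.46, and was lowest at d0. For each of the 4 genes the OLFM4-high level exceeded that of the OLFM4-low cells in all 5 libraries.

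**Figure D1:**
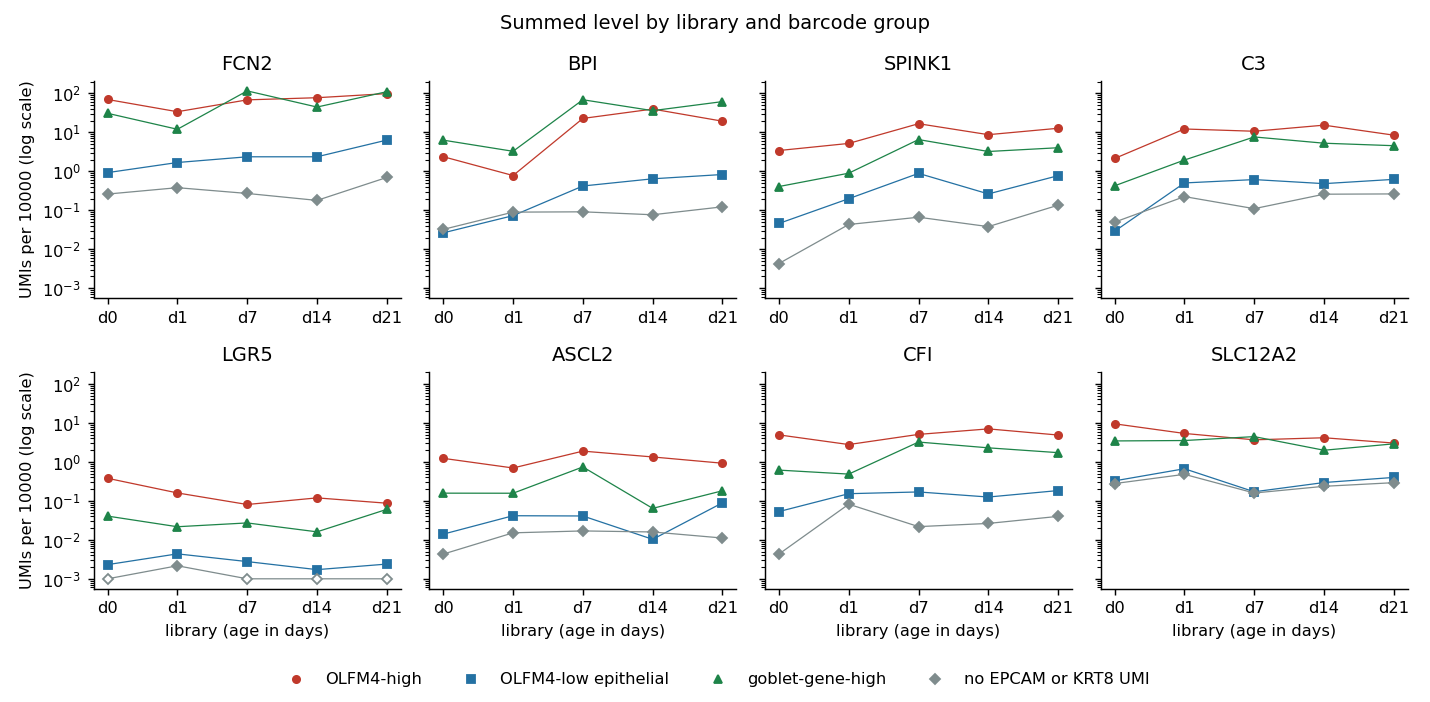
Summed level in UMIs per 10000 (log axis) of 8 genes in the 5 libraries (x axis), for OLFM4-high cells, OLFM4-low epithelial cells, goblet-gene-high cells and barcodes without a UMI of EPCAM or KRT8, all as the limits take them; open symbols at the bottom mark levels under 0.001. OLFM4-high cells lie above OLFM4-low cells for every gene and library, while goblet-gene-high cells pass them for BPI at every age but d14, for FCN2 at d7 and d21 and for SLC12A2 at d7.

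The share of OLFM4-high cells among epithelial barcodes was 0.180% at d0 (95% Clopper-Pearson interval 0.111 to 0.275), 2.48% at d1 (2.17 to 2.81), 5.61% at d7 (4.76 to 6.57), 18.6% at d14 (16.2 to 21.1) and 20.3% at d21 (18.8 to 21.7). The intervals of neighbouring ages did not overlap up to d14, and those of d14 and d21 did. With an OLFM4 limit of 50, d21 stood below d14, at 8.22% (7.26 to 9.25) against 14.4% (12.3 to 16.7). The denominators were 11663, 9170, 2584, 1029 and 3031 epithelial barcodes. Among the stricter barcodes the shares were 0.193%, 4.51%, 20.4%, 65.5% and 53.2%, in which the d14 value rested on 93 of 142 cells. Against all barcodes with at least 200 genes, no such order appeared, with 0.138%, 1.61%, 1.41%, 1.18% and 3.63%. Intervals cover counting error only, and fewer OLFM4-low cells and more OLFM4-high cells give the same share.

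**Figure D2:**
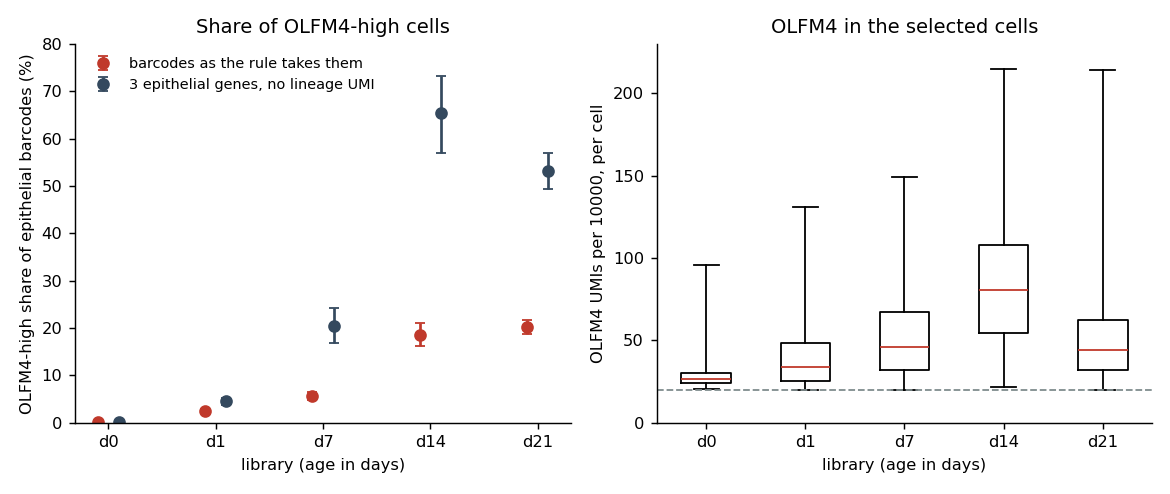
Left, OLFM4-high cells as a percentage of epithelial barcodes in each library, with 95% Clopper-Pearson intervals, for all epithelial barcodes and for the stricter ones. Right, OLFM4 UMIs per 10000 in the single OLFM4-high cells, with the box at the quartiles, the red line at the median, the whiskers at the lowest and highest cell and the dashed line at the limit of 20; the median is highest at d14 with 80.9.

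Genes of crypt-base and stem cells were higher in the OLFM4-high than in the OLFM4-low cells as a group. Counts of the stricter barcodes were summed per library and fitted with edgeR with the library as a block. Of 10889 genes tested, 2124 (19.5%) were higher and 2430 (22.3%) lower, so that 41.8% of all genes were called in 1 direction or the other, with a median log2 fold change of -0.04 over all genes. Of the 19 crypt-base and stem genes tested, 14 were higher and 1 was lower, with a median of 1.92. A call of 1 gene is therefore common, and the counts of each list are read beside these shares.

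LGR5, the R-spondin receptor, was rare in these cells and higher than in OLFM4-low cells. In the fit its level was 0.382 UMIs per 10000 at d0 and between 0.0820 (d7) and 0.158 (d14) at the later ages in the OLFM4-high cells, and 0.00254, 0.00402, 0.0119, 0 and 0.00704 in the OLFM4-low cells. The groups did not overlap, which held on the higher side for 9.97% of all genes and on the lower side for 4.16%, and the difference was 4.85 ± 0.61 on the log2 scale (SE, edgeR adjusted p = 4.81e-05). The counts were small, with 8 UMIs in all 21 OLFM4-high cells of d0 and 41, 37, 66 and 65 in all those of the later libraries. The fit used only the stricter of these cells, so that no more than these UMIs stood behind the difference. After thinning, LGR5 was seen in 0%, 1.32%, 2.07%, 0.524% and 0.651% of the OLFM4-high cells and in at most 0.0678% of the barcodes without EPCAM or KRT8.

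ASCL2, the transcription factor that specifies crypt-base stem cells, showed the same order at higher counts. It stood at 1.24, 0.568, 1.86, 1.55 and 0.995 UMIs per 10000 in the OLFM4-high cells and at 0.0142, 0.0594, 0.104, 0 and 0.176 in the OLFM4-low cells, without overlap and with a log2 difference of 3.90 ± 0.41 (edgeR adjusted p = 1.30e-05). SMOC2, a secreted matrix protein of the crypt base, stood higher at the later ages within the OLFM4-high cells, going from 0.0954 at d0 and 0.0582 at d1 to 1.05 at d7, 1.94 at d14 and 0.986 at d21. Its lowest OLFM4-high levels overlapped the OLFM4-low range of 0.00179 to 0.162, although it was higher in each of the 5 libraries (log2 difference 3.59 ± 0.37, edgeR adjusted p = 1.18e-05). SLC12A2, the sodium, potassium and chloride cotransporter of crypt secretion, was the most abundant of the list, with 9.5, 5.24, 3.70, 4.36 and 2.94 against 0.326, 0.717, 0.207, 0.673 and 0.528, and a difference of 3.31 ± 0.31 (edgeR adjusted p = 8.50e-06).

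The remaining higher genes of the list spanned Wnt targets and feedback regulators, receptors and a transcription factor of progenitors. CDCA7 (log2 difference 3.95), PROM1 (2.39), EPHB2 (2.37), ZNRF3 (2.29), AXIN2 (2.03), LRIG1 (1.92), EPHB3 (1.91), SOX9 (1.90), RNF43 (0.99) and MYC (0.68) were higher in 5 of 5 libraries each. HOPX, a gene linked to slowly cycling cells but also expressed by lymphocytes, was lower by 3.34 ± 0.48, and stood at 1.14 UMIs per 10000 in the barcodes without EPCAM or KRT8 at d21 against 0.103 in the OLFM4-high cells. CD44 (0.36 ± 0.20), RGMB (0.52 ± 0.25), TERT (0.58 ± 0.38) and BMI1 (-0.03 ± 0.36) did not pass the test, and without the d7 library MYC (0.47) did not either. Of the 17 tested genes of Wnt and Notch signalling, 4 were higher (NOTCH1 by 1.99, SP5 by 1.64, HES6 by 0.58 and LFNG by 0.50) and 4 lower, shares near the 19.5% and 22.3% of all genes, and the median was -0.20. Without the library block 1 was higher and 2 were lower. SP5 lost its call without d7, and HES6 and LFNG without d0, d1 or d7.

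All 25 tested genes of DNA replication and mitosis were higher in the OLFM4-high cells, with a median log2 difference of 2.45 against the 19.5% of all genes that were higher. UBE2C, which drives the exit from mitosis, stood at 0.334, 0.801, 3.02, 3.71 and 2.24 UMIs per 10000 against 0.0266, 0.107, 0.311, 0.0560 and 0.584 in the OLFM4-low cells (2.93 ± 0.31, edgeR adjusted p = 1.55e-05). TOP2A, the topoisomerase of dividing cells, was higher by 2.73 ± 0.29 and PCNA, the clamp of DNA replication, by 1.82 ± 0.17. The difference stood in every library for all 3 genes. On the barcodes as the limits first took them, without the demands for 3 epithelial genes and no leukocyte or stromal UMI, 15 of the 25 were called, all higher, with a median of 1.22. In the stricter barcodes the d0 level of UBE2C in OLFM4-high cells (0.334) lay under the OLFM4-low level of d21 (0.584).

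Counted by cell, dividing cells were also more frequent. After thinning to 1000 UMIs, a UMI of MKI67, TOP2A, CENPF or UBE2C was found in 15% of OLFM4-high and 0.623% of OLFM4-low cells at d0. The shares at d1 were 18.6% and 3.23%, those at d7 were 57.1% and 8.61%, those at d14 were 36.6% and 12.1%, and those at d21 were 30.7% and 15.6%. OLFM4-high cells were above OLFM4-low cells in 5 of 5 libraries, by a mean of 23.6 percentage points (SD 14.5, n = 5, exact paired permutation test, two-sided p = 0.0625, the smallest p that 5 pairs allow). The d7 library stood out with the highest share, and without it the mean difference was 17.3 points. Without thinning the mean difference was 37.7 points, and with a demand for at least 2 UMIs over the whole dividing list after thinning it was 44.7. With 1 UMI of the 4 genes after thinning, the intervals of the groups overlapped at d14 alone.

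**Figure D3:**
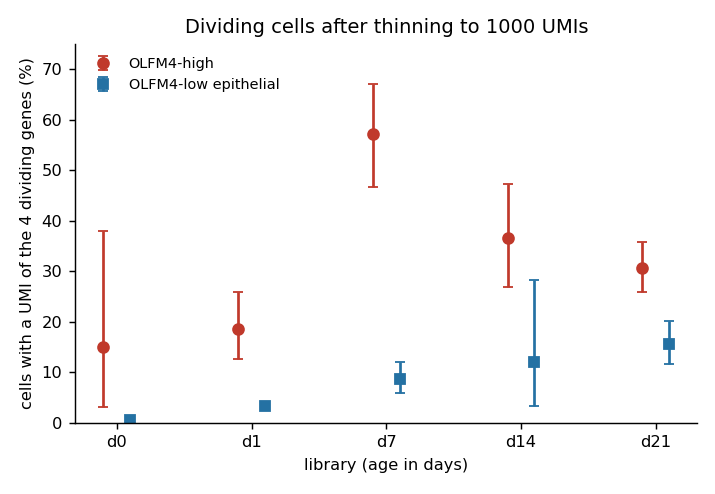
Percentage of cells (y axis) with at least 1 UMI of MKI67, TOP2A, CENPF or UBE2C after thinning to 1000 UMIs, by library (x axis), in the stricter OLFM4-high and OLFM4-low barcodes; bars are 95% Clopper-Pearson intervals. The OLFM4-high share exceeds the OLFM4-low share in each library and peaks at d7 with 57.1%.

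Complement genes differed from OLFM4-low cells in both directions. Leaving out FCN2 and C3, which had named the cells, 7 of 15 tested were higher and 4 lower, against 19.5% and 22.3% of all genes, with a median log2 difference of 1.35. On the barcodes as the limits first took them, 8 of 17 were higher and 7 lower, and the median was -0.20. CFI, the protease that inactivates C3b and C4b, led them with 4.82, 3.03, 5.43, 7.58 and 5.06 UMIs per 10000 against 0.0561, 0.200, 0.332, 0.897 and 0.542 in the OLFM4-low cells. The groups did not overlap and differed by 4.01 ± 0.34 (edgeR adjusted p = 5.73e-06), a 16.1-fold difference.

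Properdin (CFP), which stabilizes the alternative pathway convertase, was higher by 3.04 ± 0.30 and did not overlap, and CFB, a part of that convertase, was higher by 2.33 ± 0.36. CFB was low at d0 (0.191) and stood between 1.43 and 4.13 from d1 to d21. C2, C4A and C5 were higher by 2.21 to 2.47. Outside the list, C6, a component of the membrane attack complex, was 8.54-fold higher, with 0.525, 1.25, 2.37, 1.85 and 2.25 against 0.0242, 0.116, 0.228, 0.336 and 0.436. Factor D (CFD), the protease that activates factor B, went the other way and was lower by 1.39 ± 0.25, at 7.08 ± 2.66 UMIs per 10000 (SD, n = 5 libraries) against 16.8 ± 7.89 and without overlap. CD59, CD55 and SERPING1, which restrain complement, were also lower. CD55 and SERPING1 stood at 0.368 and 0.512 in the barcodes without EPCAM or KRT8 at d21 against 0.0281 and 0.0482 in the OLFM4-high cells, and either lost its call without d1 or without d7. CD59 had the largest drop of the 4 lower genes and was lower than in goblet-gene-high cells as well. At d21 it stood at 0.112 in the barcodes without EPCAM or KRT8 against 0.00536 in the OLFM4-high cells.

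Genes of innate defence split. Of 22 tested, 10 were higher and 7 lower in the OLFM4-high cells, against 19.5% and 22.3% of all genes, with a median of 0.03. Without the library block 1 was higher and 1 lower, and without the d1 library 7 and 5, with a median of -0.43. Without the d7 library 11 were higher and 3 lower. PI3 (elafin, an inhibitor of neutrophil elastase) was the most abundant, with 0.286, 6.10, 16.4, 38.6 and 21.1 UMIs per 10000 against 0.125, 2.00, 5.52, 2.07 and 4.75, and a difference of 2.09 ± 0.41 (edgeR adjusted p = 0.00111). WFDC2 (2.13 ± 0.38), REG4 (2.01 ± 0.22) and PIGR, the receptor that carries IgA and IgM across the epithelium (3.30 ± 0.41), were higher as well. Lysozyme (LYZ, 1.96 ± 0.59) was higher in 4 of 5 libraries and was not called without d14 (1.71) or d21 (1.51). It is also a macrophage gene and stood at 3.39 at d7 in the barcodes without EPCAM or KRT8. DMBT1, a secreted scavenger receptor of the gut surface, was the most abundant gene on the lower side, with 1.05, 4.96, 2.73, 1.42 and 0.272 against 7.13, 20.2, 34.0, 3.48 and 5.97 (-3.01 ± 0.42).

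Beyond the lists, the 15 genes of largest difference on the higher side held SOD3, an extracellular superoxide dismutase (3.91 ± 0.33), A4GNT, a glycosyltransferase of gland mucins (3.73 ± 0.40), and PCLAF, a PCNA-binding protein (2.94 ± 0.33). SOD3 stood at 0.404 to 1.12 in the OLFM4-high cells and at 0 to 0.134 in the OLFM4-low cells, and A4GNT at 0.364 to 1.58 against 0.00552 to 0.336. Neither overlapped. CFTR, the chloride channel of crypt secretion, was higher by 1.24 ± 0.25 and the potassium channel KCNN4 by 1.26 ± 0.25. Both were among the 10 tested genes of ion and water transport. Of these, 6 were higher and 3 lower, against 19.5% and 22.3% of all genes. Without the library block 4 were higher and 2 lower.

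Nearly all tested genes of mature cells were lower. All 14 tested genes of mature absorptive cells were lower, with a median log2 difference of -4.20, and so were 16 of 17 genes of newborn enterocytes, with a median of -3.80, against 22.3% of all genes. FABP1, a fatty acid binding protein of enterocytes, stood at 1.43, 0.997, 1.31, 0.527 and 0.328 UMIs per 10000 in the OLFM4-high cells and at 24.9, 9.35, 163, 17.2 and 9.34 in the OLFM4-low cells, without overlap (-5.06 ± 0.46, edgeR adjusted p = 8.18e-06). SLC9A3, the apical sodium and proton exchanger, was lower by 5.64 ± 0.57 and AOC1, diamine oxidase, by 5.16 ± 0.38. PRAP1, abundant in the newborn gut, reached 4.20 in the OLFM4-high cells of d0 against 23.8 and was at or under 0.553 in those of later ages (-5.05 ± 0.62). Of 13 tested general epithelial genes, 8 were lower and 1 higher (median -0.66). Of 15 early-response and heat shock genes, 10 were lower and none higher (median -0.73). Without the library block, 6 of the former and 1 of the latter were lower. On the barcodes as the limits first took them, 3 general epithelial genes were higher and 1 lower.

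Genes of the sparse epithelial lineages followed. The hormone genes PYY (-6.36 ± 0.63) and GCG (-6.47 ± 0.76) were lower, as were 9 of 11 tested enteroendocrine genes and all 9 tested tuft cell genes, against 22.3% of all genes. The d14 value of the OLFM4-low side came from only 33 cells, in which GCG stood at 8.69 and PYY at 5.10 per 10000. Of 15 tested goblet genes, which exclude the 3 the rule used, ATOH1, FOXA3, AGR2 and CREB3L1 were higher and BCAS1 and TFF3 lower, with a median of -0.24 and shares not far from those of all genes. Without the library block 2 were higher. ATOH1, the transcription factor that commits cells to the secretory lineages, stood at 0, 0.00728, 0.180, 0.0176 and 0.0325 in the OLFM4-high cells, so that d7 held most of the difference of 2.19 ± 0.42, and without the d7 library it was 1.20 and no longer called.

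Antigen presentation and interferon genes were lower in OLFM4-high cells. Against 22.3% of all genes, 15 of 18 tested antigen presentation genes were lower and none higher, with a median of -1.69, and of 19 interferon response genes 12 were lower and none higher, with a median of -0.77. B2M, the light chain of class I molecules, stood at 1.77, 4.53, 3.25, 4.18 and 14.7 UMIs per 10000 against 8.04, 11.8, 13.5, 17.5 and 19.6 (-1.72 ± 0.27, edgeR adjusted p = 0.000209). CD74 stood at 0, 0.226, 0.423, 1.84 and 0.886 against 0.139, 1.10, 3.28, 8.07 and 2.70 (-2.34 ± 0.30). The leukocyte genes were lower too, even among the stricter barcodes, with 5 of 5 tested T and NK genes (median -1.87) and 7 of 8 myeloid genes (median -2.07), and their part in the difference was not tested. Without d7 or without d1, 8 interferon genes were lower. In the edgeR fit without the library block, 1 antigen presentation gene and 0 interferon genes were lower (10 and 0 at an unadjusted p under 0.05), and DESeq2 with the block called 13 and 12.

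**Figure D4:**
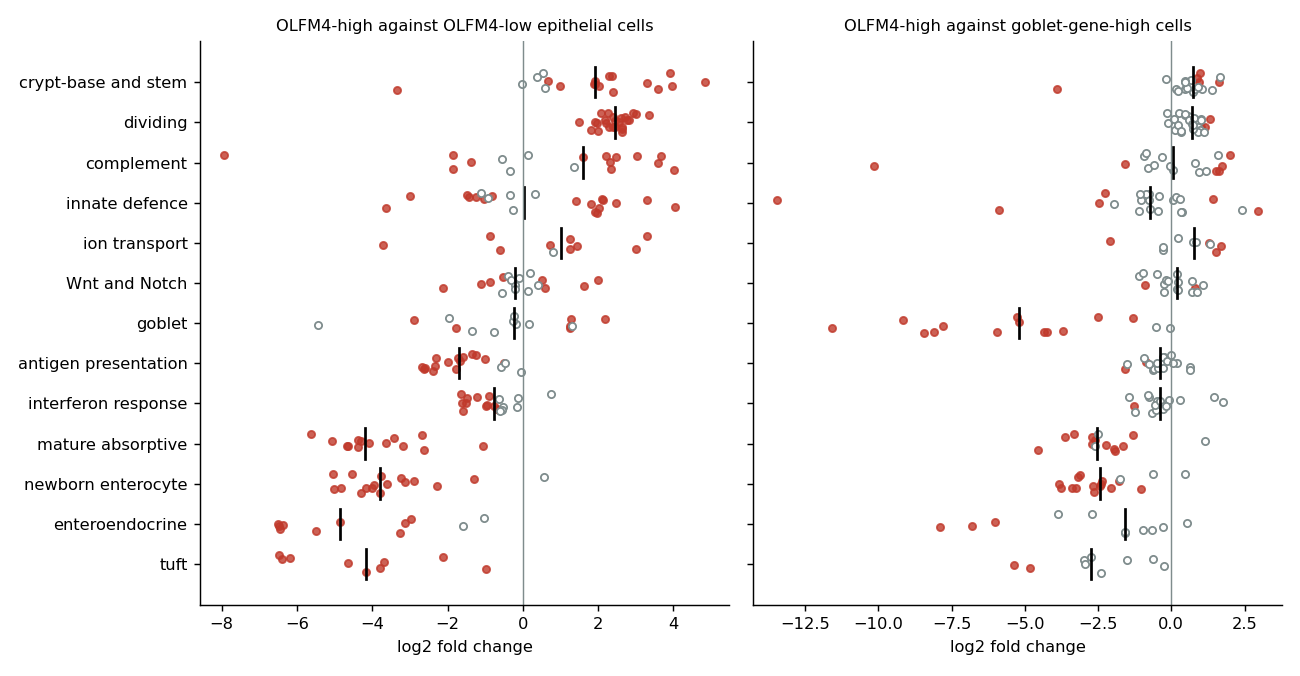
Log2 fold change (x axis) of each tested gene in 13 gene lists (y axis) between OLFM4-high and OLFM4-low cells (left, 5 libraries) and between OLFM4-high and goblet-gene-high cells (right, d0, d1 and d7); red points passed an edgeR adjusted p of 0.05, open points did not, and black bars are list medians. Dividing genes lie wholly above 0 and mature absorptive genes wholly below it on the left, and the complement points include FCN2 and C3. Where a gene had no or few UMIs on the OLFM4-high side, its fitted size depends on the fit.

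The contrast with goblet-gene-high cells rested on d0, d1 and d7, and 425 of 10889 genes (3.9%) were higher and 813 (7.47%) lower in the OLFM4-high cells. Without the d0 library the counts were 42 and 346, without d1 49 and 389, and without d7 193 and 691. FCN2 differed in direction between libraries, with 68.8, 33.5 and 71.1 UMIs per 10000 against 31.9, 17.7 and 150.4, higher in the OLFM4-high cells at d0 and d1 and lower at d7. BPI was lower in the OLFM4-high cells in each of the 3 libraries, with 2.39, 0.531 and 23.8 against 6.49, 4.88 and 85.1. SPINK1 and C3 were higher in each of the 3, with 3.44, 4.74 and 17.6 against 0.434, 1.42 and 1.97 for SPINK1.

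Of the crypt-base and stem genes, 4 of 19 were higher than in goblet-gene-high cells, against 3.9% of all genes, and HOPX was lower. ASCL2 stood at 1.24, 0.568 and 1.86 against 0.168, 0.291 and 0.384 (1.62 ± 0.47, edgeR adjusted p = 0.0402), MYC was higher by 0.97 ± 0.26, CD44 by 0.94 ± 0.26 and RNF43 by 0.89 ± 0.22. None of the 4 was called without d0 or without d1. LGR5 did not pass, with a difference of 1.65 ± 0.65 and levels of 0.382, 0.109 and 0.0820 against 0.0434, 0.0469 and 0. Of 25 dividing genes, GINS2, TYMS and PCNA were higher and none was lower, and none of the 25 was called without d0 or without d1. TOP2A differed by -0.16 ± 0.34 and MKI67 by -0.10 ± 0.34.

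Among all genes, 3.9% were higher and 7.47% lower than in goblet-gene-high cells. Of the complement genes other than FCN2 and C3, 3 of 15 were higher and 2 lower (median 0.04), of the innate defence genes 2 of 22 were higher and 4 lower (median -0.73), and of the ion and water transport genes 3 of 10 were higher and 1 lower (median 0.78). CFI stood at 4.82, 3.03 and 5.43 against 0.651, 0.713 and 1.59 (2.00 ± 0.38, edgeR adjusted p = 0.00461). C9, the pore-forming component of complement (1.82 ± 0.32), CFP (1.73 ± 0.37) and SFTPD, a secreted collectin (1.86 ± 0.45), were higher. CFTR (1.68 ± 0.32), the bicarbonate transporter SLC4A4 (1.53 ± 0.39), KCNN4 (1.29 ± 0.34) and the claudin CLDN2 of leaky crypt junctions (1.48 ± 0.36) were higher and did not overlap, as 10.7% of all genes did on the higher side and 10.4% on the lower. CFI, C9 and CFTR were called with any 1 library left out, whereas CFP was lost without d1 (1.76), SFTPD without d0 (1.77), CLDN2 without d0 or d7, and SLC4A4 and KCNN4 without d0 or d1.

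On the lower side stood the goblet programme, which the rule kept low through 3 of its genes. TFF3, the trefoil peptide of goblet cells, stood at 0.334, 0.713 and 1.44 against 254, 210 and 149, and AGR2, which folds mucins, at 0.954, 0.400 and 2.35 against 60.5, 23.3 and 149. REG4, higher than in OLFM4-low cells, was lower than in goblet-gene-high cells, with 0.239, 0.328 and 1.83 against 24.8, 12.8 and 113 (-5.88 ± 0.27). The transcription factor SPDEF was lower by 8.08 ± 0.66, and RAB26, a GTPase of secretory granules, had no UMI in the 3 OLFM4-high sums and 0.344, 0.451 and 1.05 per 10000 in the goblet-gene-high ones.

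Within the OLFM4-high cells, adjacent ages were compared where both held at least 50 cells, which left d7 over d1, d14 over d7 and d21 over d14. With 1 library per age these are differences between libraries and have no test. A gene was counted as changed when its level per 10000, with 0.1 added, differed at least 2-fold, the Poisson 95% intervals did not overlap and at least 20 UMIs stood behind it. From d1 to d7, 226 of 10507 genes rose (2.15%) and 225 fell (2.14%). From d7 to d14, 95 of 10972 rose (0.866%) and 13 fell (0.118%). From d14 to d21, 117 of 11347 rose (1.03%) and 78 fell (0.687%). Each of these counts was far smaller with 1 added in place of 0.1. Among the stricter barcodes more genes fell than rose from d7 to d14. With each cell weighted alike, more fell from d1 to d7 and from d7 to d14. The counts under these choices stand in the last section.

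BPI had the largest rise from d1 to d7, from 0.779 (0.675 to 0.895) to 22.8 (22.3 to 23.2), a log2 ratio of 4.70 with 0.1 added to each level. Without that addition the ratios of MX1 and LYZ, which were near 0 at d1, exceed that of BPI. LYZ rose from 0.0273 to 1.21, S100A2 from 0.0662 to 1.38, and the crypt genes SMOC2 and ASCL2 rose 2.69 and 1.32 on the log2 scale. S100A2, a calcium-binding protein of epithelia, was at most 0.0680 in the barcodes without EPCAM or KRT8. The heat shock genes HSPA6 and HSP70.2, both outside the lists, rose as well. HSPA6 went from 0.234 to 5.84, the third largest rise, and HSP70.2 from 1.51 to 6.70. In the barcodes without EPCAM or KRT8 these went from 0.529 to 12.5 and from 4.18 to 18.6. Of the 15 listed early-response and heat shock genes, none rose and 5 fell (FOSB, JUNB, EGR1, ATF3 and ZFP36), against 2.15% and 2.14% of all genes. Their median log2 ratio was -0.44. Of the 25 dividing genes, 6 rose in this step and none fell, against 2.15% and 2.14% of all genes.

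Interferon-stimulated genes rose with BPI. From d1 to d7, 9 of 18 rose and none fell, against 2.15% and 2.14% of all genes. Among those that rose, IFI6 went from 0.269 to 6.79 and MX1 from 0.0273 to 2.14. In the barcodes without EPCAM or KRT8, IFI6 also stood higher at d7, at 27.4 against 7.72 at d1, and MX1 at 3.13 against 0.316. ISG12(A), an interferon-induced mitochondrial protein gene, went from 0.203 to 3.95 in the OLFM4-high cells, while it stood at 3.59 at d1 and 0.944 at d7 in the barcodes without EPCAM or KRT8. A second step came at d21, when 9 of 20 rose, against 1.03% of all genes. ISG12(A) reached 16.3 at d21 in OLFM4-high cells, against 2.67 in the barcodes without EPCAM or KRT8.

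On the falling side of d7 over d1 stood REG3G, a bactericidal lectin, which was seen at d1 alone, with 1.84 (1.68 to 2.01) there and 0 UMIs at d0, d7, d14 and d21. The chemokine CCL20 went from 2.57 to 0.338, the bile acid binding protein FABP6 from 0.791 to 0.0305, and the granins CHGA and CHGB of endocrine cells from 0.546 and 0.549 to 0 and 0.00654. CHGA stood again at 0.381 at d14 and 0.246 at d21. IGFBP7 fell from 0.791 to 0.0153 and COL4A1 from 0.534 to 0.00436. In the barcodes without EPCAM or KRT8 these went from 31.2 to 0.930 and from 17.2 to 0.628. Of the stromal genes 3 of 4 fell in this step, and of the endothelial genes 2 of 3. Of the newborn enterocyte genes, 8 of 11 fell and none rose, against 2.14% and 2.15% of all genes.

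PIGR rose in each of the 3 steps, which no other gene of the polymeric immunoglobulin and mucosal list did. Its level was 0 at d0, 0.0546 (0.0298 to 0.0915) at d1, 0.262 (0.217 to 0.313) at d7, 2.22 (2.09 to 2.34) at d14 and 6.09 (5.91 to 6.27) at d21. After thinning, 0%, 0.441%, 2.76%, 13.1% and 32.7% of the OLFM4-high cells held a UMI of PIGR, against at most 0.587% of the barcodes without EPCAM or KRT8. The OLFM4-low cells stood at 0.410 at d21. The count of 0 at d0 allows a level of up to 0.142 per 10000.

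REG4, LYZ and BPI peaked at d14. REG4, a lectin of enteroendocrine and deep secretory cells, stood at 0.237, 0.503, 1.85, 5.86 and 0.559, and fell by 3.18 on the log2 scale from d14 to d21. LYZ reached 4.44 at d14 and 1.69 at d21, and BPI 39.6 and 19.3. PI3 stood at 36.0 at d14, with the level of d21 at 19.2. S100A2, DMBT1 (3.04 to 0.307), LCN15 (1.48 to 0.117) and SLPI (2.27 to 0.425) fell in the same step.

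**Figure D5:**
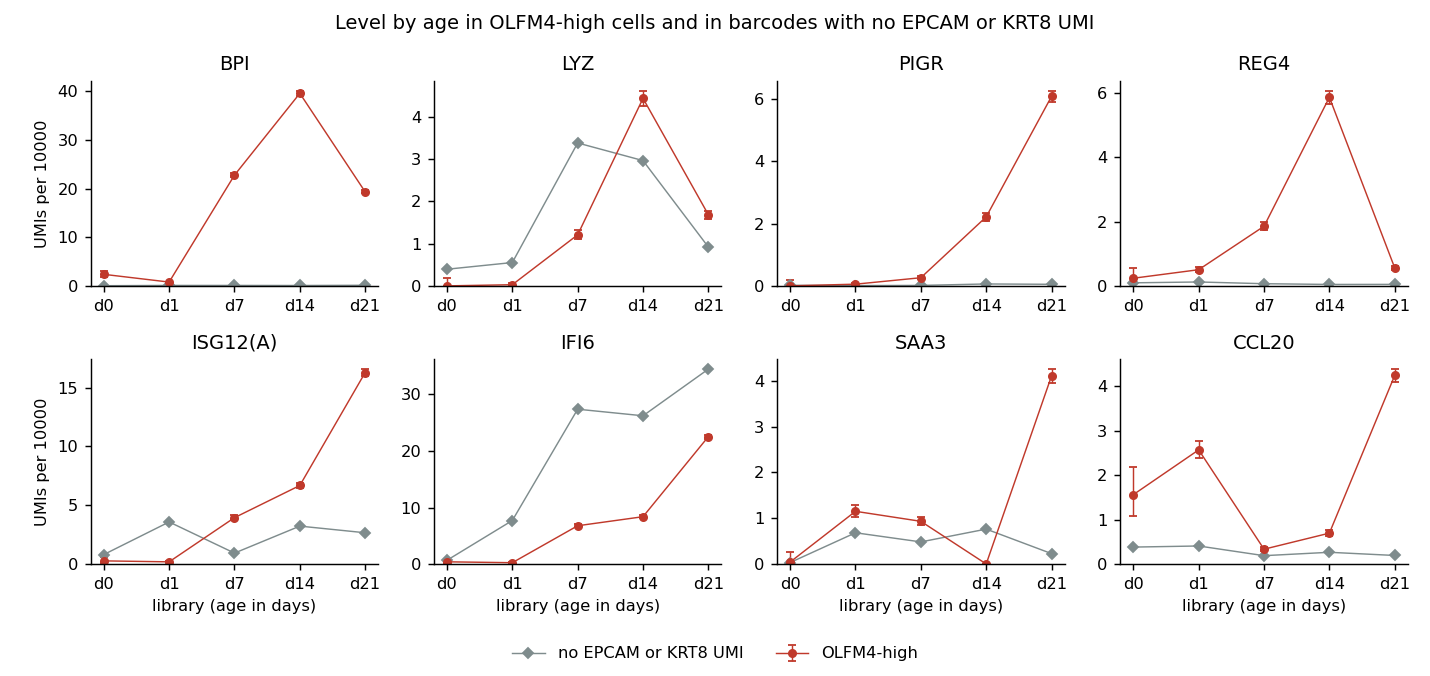
Level in UMIs per 10000 (y axis, one scale per gene) of 8 genes by library (x axis) in the OLFM4-high cells, with Poisson 95% intervals, and in the barcodes without a UMI of EPCAM or KRT8, shown without intervals. BPI, LYZ and REG4 are highest at d14 in the OLFM4-high cells, PIGR and ISG12(A) at d21, and IFI6 rises in both kinds of barcode.

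At d21 some genes of inflammation and of heat shock stood higher than at d14, while others of innate defence fell. Of 23 innate defence genes, 6 rose and 6 fell, against 1.03% and 0.687% of all genes, with a median log2 ratio of -0.47. The rises were PIGR, SAA3, CCL20, CXCL8, CXCL2 and ADM, and the falls LYZ, DMBT1, REG4, DUOX2, DUOXA2 and SLPI. Of 15 early-response and heat shock genes, 6 rose and none fell, against the same shares of all genes, with a median of 0.87. Those that rose were FOS, FOSB, JUND, ATF3, HSP90AA1 and DNAJB1. SAA3, an acute phase protein, went from 0.00542 (0.00112 to 0.0158) at d14 to 4.10 (3.96 to 4.25) at d21, the largest rise of that step, after 1.15 at d1 and 0.935 at d7. CCL20 rose from 0.699 to 4.25 and the chemokine CXCL10 from 0.511 to 3.11. SAA3 stood at 0.231 and CCL20 at 0.197 in the barcodes without EPCAM or KRT8 at d21. The heat shock gene HSP70.2 went from 3.73 to 22.6 and ZFAND2A, induced by protein stress, from 1.12 to 6.61, and in the barcodes without EPCAM or KRT8 these went from 22.3 to 30.7 and from 0.672 to 3.19. The class I genes B2M, SLA-1, SLA-2 and SLA-3 rose in this step, as did CCL5, from 2.18 to 10.9 beside 49.4 and 136.4 in the barcodes without EPCAM or KRT8.

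Most of the leading rises from d7 to d14 were genes of other cells. ACTA2 and TAGLN of smooth muscle, COL3A1 and FN1 of fibroblasts, JCHAIN of plasma cells and the stromal CXCL14 and ADAMDEC1 each reached 0.703 to 1.72 at d14 in the OLFM4-high cells. In the barcodes without EPCAM or KRT8 at d14, CXCL14 stood at 36.3, JCHAIN at 24.5, ADAMDEC1 at 16.2 and COL3A1 at 14.5. In this step 7 of 10 stromal genes rose, against 0.866% of all genes. Of 23 innate defence genes, 7 rose and 1 (SAA3) fell, against 0.866% and 0.118% of all genes. Those that rose were LYZ, PIGR, REG4, DUOX2, DUOXA2, SLPI and PI3. Of 18 antigen presentation genes, 5 rose and none fell. Among the stricter barcodes 48 genes rose and 59 fell in place of 95 and 13. The falls held CENPE and CENPF of the kinetochore (CENPF from 5.19 to 2.24) and HBB of red cells, from 0.643 to 0.

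The cells also varied within each library. At d21 the quartiles of the OLFM4-high cells were 13.8 and 130.2 FCN2 UMIs per 10000, with a lowest value of 0 and a highest of 1063, and 0 and 22.4 of BPI. At d1 they were 4.26 and 39.6 for FCN2 and 0 and 0 for BPI. Spearman's rho between OLFM4 and BPI over the single cells was 0.08 at d0 (n = 21), -0.04 at d1 (n = 227), 0.39 at d7 (n = 145), 0.54 at d14 (n = 191) and 0.25 at d21 (n = 614). For FCN2 it was 0.28, 0.04, 0.31, 0.39 and 0.24, and for the keratin KRT19 -0.01, -0.18, -0.20, -0.25 and -0.16. These only describe cells that share a library, whose depth differs and whose OLFM4 the rule kept at 20 per 10000 or more. BPI itself correlated with the number of UMIs at 0.34 at d14 and 0.44 at d21.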

How the data were processed

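The 5 libraries were made with a 10x Genomics 3′ kit, and per the labels and the submitters' processing notes the authors obtained UMI counts with Cell Ranger 3.1.0 and STAR on susScr11 (Sscrofa11.1). The deposited values are raw counts per gene and barcode (20648 genes), and the matrices hold more barcodes than the forced number the methods name. The 5 deposited matrices held 47921183 to 91863866 counts in barcodes with at least 200 genes. No replicate library existed for any age, doublets and free RNA were not removed, and barcodes are not replicates. The members, markers and gene lists were chosen with earlier results of these data known.

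Counts were summed per library and group (at least 20 barcodes) and fitted with edgeR 4.0.16 in R 4.3.3 (TMM, filterByExpr, quasi-likelihood test, library as block because the groups of 1 library share animals and preparation). P-values were adjusted by Benjamini-Hochberg over all genes tested, at 0.05. With the block, they set the group difference against how far it varied between libraries, which differed in age. The 6 genes the rule used were left out of the calls. Fold changes on the log2 scale follow edgeR. Named genes were the markers, up to 6 of highest level per list with all stem genes, the 15 and 10 of largest difference on each side with a level of at least 0.5 per 10000 and 1 direction in every library, and 8 rises and 8 falls per age step. Some list genes are not reported here by name, genes with LOC symbols were counted and not named, and further list members named were chosen after their values were seen. On simulated counts of 10618 genes for the contrast with OLFM4-low cells, 3 of 48 genes changed 1.5-fold and 29 of 49 changed 2-fold were recovered. So were 44 of 47 changed 4-fold and 47 of 50 changed 8-fold. The other 10424 genes had the same mean level in all groups of a library, and 8 of them were called. Recovery where as many genes differ as in the data, of which 41.8% were called, was not tested. Alternatives were DESeq2 1.42.0, no filter, no block, other limits on barcodes and leaving out each library. A count of 0 was read as up to 3 counts. Symbols and positions came from the files and from RefSeq tables of Sscrofa11.1.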

Additional observations from a re-analysis of the deposited data

Results flagged for a closer look

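Some barcodes outside the OLFM4-high cells passed the OLFM4 limit. Among the 34329 barcodes with at least 1000 UMIs and no UMI of EPCAM or KRT8, 28 held at least 20 OLFM4 UMIs per 10000, with 0 at d0, 1 at d1, 4 at d7, 2 at d14 and 21 at d21. Their median depth was 1985 UMIs, 24 held at least 1 and 14 at least 3 other epithelial genes, and their summed FCN2 level was 84.0 per 10000. Their summed PTPRC level was 2.66 per 10000.

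A further 41 barcodes passed the OLFM4 and the goblet limits together, with 2 at d0, 24 at d1, 8 at d7, 6 at d14 and 1 at d21. They were deep, with a median of 29896 UMIs, and their summed TFF3 level was 56.3 and their FCN2 level 57.4 per 10000. Whether they are doublets was not tested.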

How the results depend on the processing

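In the fits against OLFM4-low and goblet-gene-high cells, the library served as the block. Without the block, the genes lower than in OLFM4-low cells numbered 1514 in place of 2430, and the genes higher and lower than in goblet-gene-high cells 195 and 449 in place of 425 and 813. Antigen presentation then kept 1 lower gene and the interferon response 0 of the 15 and 12, while 13 crypt-base and 24 dividing genes were higher. Of the called genes vs OLFM4-low cells, 1465 of the 2124 higher ones were shared with the fit without the block, and HSPB1 (0.55) and SLA-2 (0.84) turned positive against goblet-gene-high cells. No paired analysis was possible between ages because each age had 1 library. Leaving out each library gave 1418 to 2066 higher and 1776 to 2442 lower genes against OLFM4-low cells, 42 to 435 and 346 to 797 against goblet-gene-high cells, and a difference in dividing cells of 17.3 to 25.9 percentage points. With barcodes as the limits first took them, 525 genes were lower than in goblet-gene-high cells. That fit also took in the goblet-gene-high cells of d14 (32) and d21 (22), so that the libraries changed as well as the barcodes. Against OLFM4-low cells 1956 were then higher and 3337 lower, which shared 1330 of the 2124 higher and 1462 of the 2430 lower calls, 5 of the higher and 1 of the lower were called the other way, and ATP1B1 (0.48), CLDN3 (0.71), CLDN7 (0.46), ELF3 (0.39), ST14 (0.44), FZD5 (0.036), DUOX2 (0.037) and PLA2G2A (0.39) turned positive, none of them called, the last also in DESeq2 (0.23). DESeq2 shared 1966 of the 2124 higher and 2309 of the 2430 lower calls. With an OLFM4 limit of 50, 236 genes were higher than in goblet-gene-high cells. That fit also lacked d0, where only 2 OLFM4-high cells remained. The shares at this limit were 0.0171%, 0.578%, 2.55%, 14.4% and 8.22%, so that d21 came below d14. The shares were 7.05% at d7 and 23.1% at d21 with at least 2000 UMIs, 0.282% at d0 and 22.6% at d21 with under 20% mitochondrial counts, and 4.51%, 20.4%, 65.5% and 53.2% from d1 to d21 in the stricter barcodes. With 1 added to the levels in place of 0.1, 31 genes rose and 18 fell from d1 to d7, 10 and 0 from d7 to d14, and 30 and 13 from d14 to d21. With each cell weighted alike, 358 fell from d1 to d7 and 102 from d7 to d14, and in the stricter cells 48 rose and 59 fell from d7 to d14. The causes were not tested. Depth limits the 21 cells of d0 and the 33 stricter OLFM4-low cells of d14 most.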
